A study of Mus musculus with 6 samples.

Results

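miR-320-3p, miR-320-5p and miR-484 are mouse miRNAs whose hairpins are described as bypassing the nuclear enzyme Drosha. The 3 rows with these names were taken from a table of 1966 mature miRNAs, and all 3 were present. Small RNA had been sequenced from hearts taken 8 weeks after surgery from 6 wild-type males. In 3 mice (animals 29, 78 and 81) transverse aortic constriction (TAC) had narrowed the aorta, which loads the left ventricle with pressure, and 3 mice (animals 47, 68 and 69) had sham surgery. Each mouse gave 1 library. Neither strain nor age is given in the sources used here.

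Most miRNAs are cut first by Drosha, from a long nuclear transcript, and then by Dicer in the cytoplasm. Some hairpins skip the first cut because transcription starts and stops at the hairpin itself, which then carries an mRNA-like cap and leaves the nucleus through the export factor Xpo1. miR-320 is the best known example, and its cap is described as keeping the 5p arm out of Argonaute, so that mainly the 3p arm is used. In heart muscle, miR-320 has been studied in ischaemic injury, where it targets the small heat shock protein Hspb6, and miR-484 in mitochondrial fission, where it targets Fis1. A count table does not show how a miRNA was made, so the class rests on that knowledge and not on these libraries.

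The sequence of miR-484 is shown with its seed (bases 2 to 8, which pair with target mRNAs) in capitals, beside the tested products of mirtrons, hairpins that splicing and not Drosha releases, because miRNAs that bypass the same enzyme here have different seeds. Sequences are RefSeq's, build GRCm38.p6, 5′ to 3′.
miR-484: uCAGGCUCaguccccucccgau
miR-877-5p: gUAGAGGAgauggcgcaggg
miR-877-3p: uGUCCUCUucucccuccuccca
miR-702-3p: uGCCCACCcuuuaccccgcucc
Of the 1675 rows of the table matched to a RefSeq mature sequence, 0 others had the seed of miR-484, and 0 others were within 2 mismatches of it over the first 20 bases. miR-484 was rich in G and C, at 63.6% against a median of 52.2% over the matched rows, and 82.4% of those rows had a lower content. The mirtron products shown were at 65%, 59.1% and 68.2% in the order printed.

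Both hairpins lay beside a start of a protein-coding transcript on the opposite strand. Mir320 (chromosome 14, 70443510 to 70443591, plus strand, intergenic in GENCODE M21, build GRCm38) began 63 bases from a start of Polr3d, a subunit of RNA polymerase III. Its 5p arm was at 70443525 to 70443546 and its 3p arm at 70443557 to 70443578. Mir484 (chromosome 16, 14159626 to 14159692, plus strand) began 359 bases from a start of Marf1, a regulator of meiosis in oocytes, and 3649 bases upstream of Nde1, the nearest start on its own strand. The mature miR-484 (14159630 to 14159651) lay in the Marf1 locus, antisense and outside its exons, while the far end of the hairpin overlapped a UTR exon of Marf1 (14159674 to 14159862). Of 2202 annotated miRNA genes, 2.32% began as near to a protein-coding start as Mir320 and 5.86% as near as Mir484, against a median distance of 22303 bases. Nearness to a protein-coding start on either strand therefore held for both in the annotation. On its own strand, the start nearest to Mir320 was that of Phyhip, 13966 bases away. The share of miRNA genes as near to a start on their own strand was not computed. The annotated lengths were 82 and 67 bases, against a median of 80 over 1228 mouse hairpins, so only that of Mir484 was below the median, and 25.1% of hairpins were shorter still.

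Total counts per library ranged from 1226187 to 3509001. The muscle identity of the tissue was checked on 4 muscle miRNAs, miR-1a-3p, miR-133a-3p, miR-208a-3p and miR-499-5p. Together they held between 16.9% and 20.04% of counts in sham libraries and between 24.8% and 28.3% in TAC libraries. Most of that share came from miR-1a-3p and miR-133a-3p, and no other muscle was compared. The endothelial miR-126a-3p and miR-126a-5p, the leukocyte miR-142a-3p and the red blood cell miR-486a-5p were at 0 in every library. Each of these 4 rows lies across an opposite-strand row, so their zeros were not read as absence. The muscle miRNA miR-1a-3p also lies across such a row, and whether it lost reads was not tested. The 3 rows of miR-320 and miR-484 have 1 place each and overlap 0 other rows.

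miR-484, from the 5′ arm of its hairpin (it begins at base 5), was lower in each TAC heart than in any sham heart, but the difference missed the threshold by a narrow margin. Its counts were 3576, 1914 and 2716 in sham 47, 68 and 69, against 1391, 1097 and 869 in TAC 29, 78 and 81. As CPM (counts relative to library size), scaled with TMM factors that align the bulk of the miRNAs between libraries, its level was 915, 961 and 1064 in sham, against 842, 737 and 817 in TAC. The lowest sham heart was thus above the highest TAC heart. The group levels were 980 ± 76.5 and 799 ± 54.5 CPM (SD, n = 3 each), 1.23-fold lower in TAC. The log2 difference was -0.30 ± 0.10 (SE), with a 95% interval from -0.53 to -0.06 and an adjusted p = 0.0546 in edgeR's quasi-likelihood test (unadjusted p = 0.0185).

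miR-320-3p, the major arm of its hairpin, was the more abundant miRNA of the class, and its groups overlapped. Reads of it numbered 6836, 3357 and 4549 in sham 47, 68 and 69, against 3101, 2214 and 1503 in TAC 29, 78 and 81. The TMM-scaled levels were 1749, 1686 and 1782 CPM in sham, against 1876, 1488 and 1413 CPM in TAC. TAC 29 was above all sham hearts, and TAC 78 and TAC 81 were below all of them. The means were 1739 ± 49.0 CPM in sham and 1592 ± 249 CPM in TAC (SD, n = 3 each), and the spread among TAC hearts exceeded the difference. The log2 difference was -0.13 ± 0.12 (SE), with a 95% interval from -0.39 to 0.135 and an edgeR adjusted p = 0.408. Without TAC 29 it was -0.27 (adjusted p = 0.104), and without TAC 81 it was -0.05 (adjusted p = 0.776).

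Neither of the 2 tested miRNAs was therefore called at an adjusted p under 0.05, where 108 of all 354 tested miRNAs (30.5%) were, 11.3% as lower and 19.2% as higher in TAC. At an unadjusted p under 0.05 the test gave 1 of the 2, miR-484, against a background of 44.4%. Groups that do not overlap with TAC lower, as in miR-484, were found in 22.0% of tested miRNAs. The median log2 difference over all tested miRNAs was 0.07, and 26.8% of them lay below miR-484 and 38.7% below miR-320-3p. Both values thus sat below the median of the distribution.

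**Figure D1:**
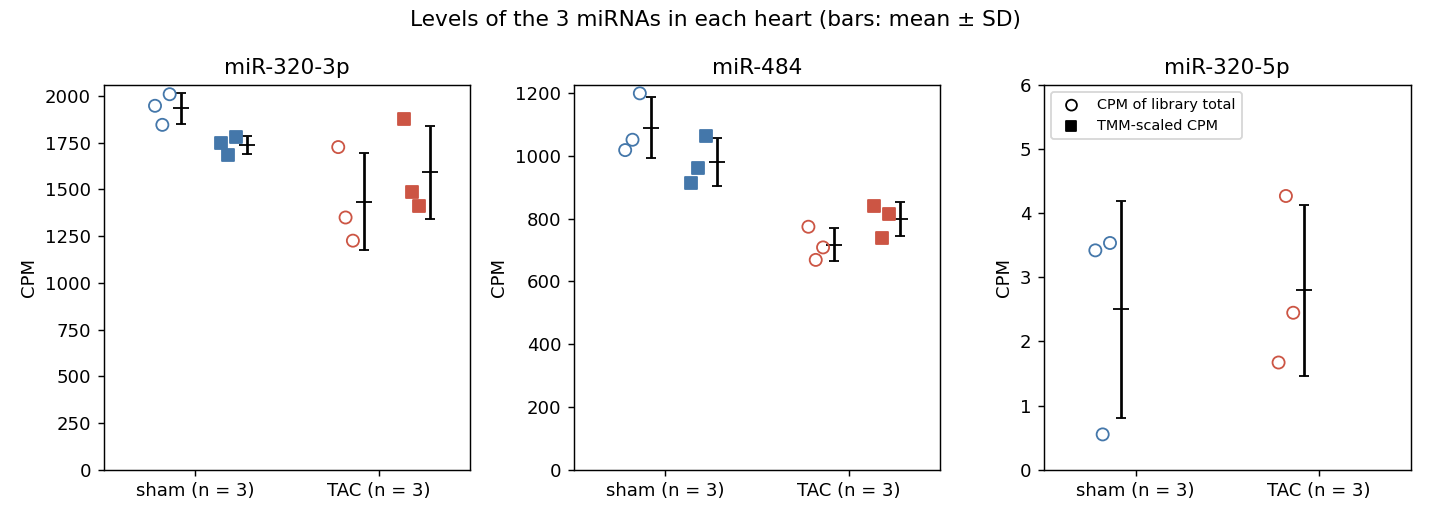
Level of each miRNA in CPM, per heart, in sham (blue) and TAC (red), as CPM of the library total (open circles) and, for the 2 tested miRNAs, TMM-scaled (filled squares); bars are mean ± SD of 3 hearts. miR-484 is apart between groups on both scales, whereas for miR-320-3p TAC 29 reaches 1876 CPM after TMM scaling, above the sham hearts.

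How low the TAC hearts were depended on the scaling, because TMM factors were between 1.10 and 1.13 in sham and between 0.868 and 0.921 in TAC. As CPM of library totals, miR-320-3p was at 1948, 1846 and 2010 in sham 47, 68 and 69, against 1727, 1350 and 1226 in TAC 29, 78 and 81. On that scale all TAC hearts were below all sham hearts (1935 ± 83.0 against 1434 ± 261 CPM, SD, n = 3 each). miR-484 was at 1019, 1052 and 1200 CPM of the total in sham, against 775, 669 and 709 in TAC (1091 ± 96.4 against 717 ± 53.4, SD, n = 3 each). Such a separation with TAC lower was found in 34.7% of tested miRNAs on this scale. With library totals edgeR called both lower, miR-320-3p at a log2 difference of -0.43 (adjusted p = 0.0289) and miR-484 at -0.60 (adjusted p = 0.00397). In that setting the median of all tested miRNAs was -0.24, a shift of -0.31 from the TMM level, and 35.9% of tested miRNAs were called.

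miR-484 was close enough to the threshold for the choice of method to decide its call. It was lower at an adjusted p under 0.05 in 7 of 18 alternative analyses. Among them were DESeq2 (-0.37, adjusted p = 0.0115) and RLE size factors (-0.37, adjusted p = 0.0235), which called 14.2% and 15.8% of all tested miRNAs lower. In both, the median of all tested miRNAs moved by -0.08 from the TMM level, so part of these values is the shared shift. Over all 18 the log2 difference of miR-484 was below 0, from -0.60 to -0.04, with adjusted p from 0.00397 to 0.835. The value nearest 0 was -0.04, with a 95% interval from -0.29 to 0.21. It came from the fit in which a trend of counts with GC content was taken from each library. That fit covered only 315 miRNAs and called 21.3% of them, and its median moved by -0.06 from the TMM level. Library sizes were taken over those rows alone, so the scaling changed along with the GC trend. miR-320-3p was below 0 in all 17 alternatives that gave a value, from -0.43 to -0.05, and was called only with library totals.

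**Figure D2:**
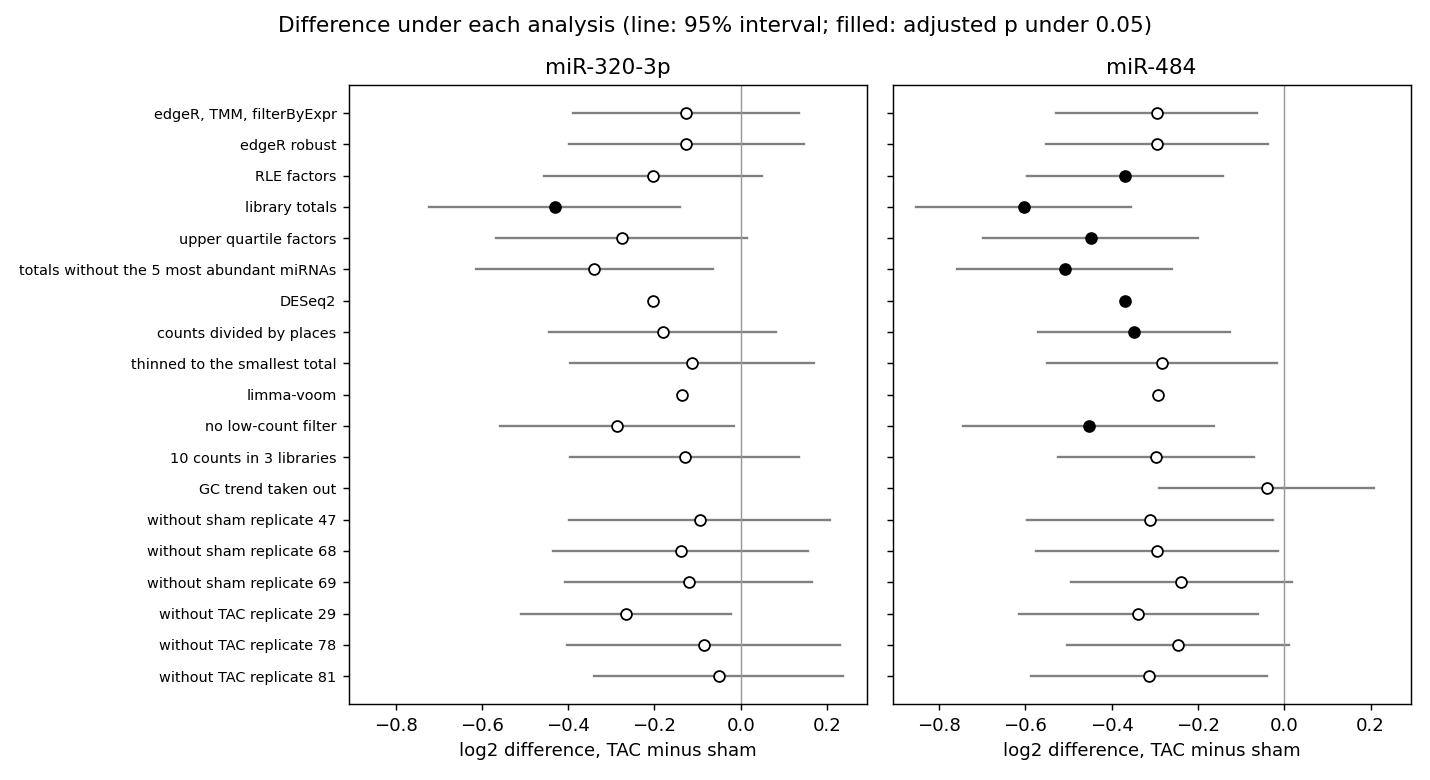
Log2 difference between TAC and sham for miR-320-3p (left) and miR-484 (right) under each analysis; lines are 95% intervals (not drawn for DESeq2 and limma-voom) and filled points have an adjusted p under 0.05. All points lie below 0, and miR-484 is nearest to it, at -0.04, once the GC trend is taken out.

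The balance between both miRNAs inside a library needs no scaling factor. miR-320-3p had 1.91, 1.75 and 1.67 counts per count of miR-484 in sham 47, 68 and 69, against 2.23, 2.02 and 1.73 in TAC 29, 78 and 81. The ranges overlapped, since TAC 81 was below sham 47 and sham 68. The sham log2 ratio of 0.83 ± 0.10 compared with 0.99 ± 0.18 for TAC (SD, n = 3 each), a difference of 0.16 with an exact permutation p = 0.3 (two-sided, where 3 against 3 cannot go below 0.1). It was 0.07 without TAC 29 and 0.26 without TAC 81. Ranked by count among all rows, miR-320-3p was at place 51, 52 and 49 in sham, against 52, 57 and 57 in TAC. miR-484 was at 66, 65 and 60 in sham, against 70, 72 and 70 in TAC.

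In the order of mean level over the tested miRNAs, miR-320-3p was the 54th and miR-484 the 67th. The miRNAs next to miR-320-3p were miR-127-3p (2292 ± 393 CPM in sham, 1448 ± 314 in TAC) of the imprinted Dlk1-Dio3 region and miR-125a-5p (1622 ± 65.1 and 1538 ± 43.8 CPM). Those next to miR-484 were miR-146b-5p (929 ± 123 and 926 ± 43.9 CPM), known from inflammation, and miR-423-5p (928 ± 64.9 and 834 ± 85.8 CPM), known as a plasma marker of heart failure (SD, n = 3 each). miR-484 and these neighbours were within 1 SD of each other in sham, so their order there was not resolved.

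miR-320-5p, the arm the cap is described as blocking, was close to the limit of detection. Only 12, 1 and 8 reads of it were counted in sham 47, 68 and 69, against 3, 7 and 3 in TAC 29, 78 and 81, and sham 68 and TAC 78 were the extremes as CPM of the total (0.550 and 4.27). A count of 0 would allow 3 counts, which is 0.855 to 2.45 CPM at these depths. The row did not pass the filter on low counts, and in a fit without that filter its log2 difference was 0.20, with a 95% interval from -1.05 to 1.46 (edgeR adjusted p = 0.848). A difference between groups was not detectable at this depth.

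As a share of all miR-320 counts, the 5p arm held 0.175%, 0.0298% and 0.176% in sham 47, 68 and 69, against 0.0966%, 0.315% and 0.199% in TAC 29, 78 and 81. The exact (Clopper-Pearson) 95% intervals reached from 0.000754% in sham 68 to 0.648% in TAC 78, they cover counting error only, and all of them overlapped. The sham mean of 0.127% ± 0.0841 compared with 0.204% ± 0.109 for TAC (SD, n = 3 each). The two-sided exact permutation p was 0.4, and the difference of 0.0768 percentage points was 0.0283 without sham 68 and 0.0211 without TAC 78. Summed over libraries, the hairpin gave 34 counts of the 5p arm and 21560 of the 3p arm.

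So skewed a hairpin was common in these hearts. Among 112 hairpins with at least 1000 counts over both arms and no arm under an opposite-strand row, the minor arm held a median of 1.96% of counts, against 0.158% in miR-320. In 30 of them (26.8%) the minor arm had a smaller share than in miR-320. The 3p arm was the major one in 60 of the 112. Among the 30 was let-7g, a Drosha-cut hairpin chosen here after its values were seen, whose minor arm held 0.00219%.

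**Figure D3:**
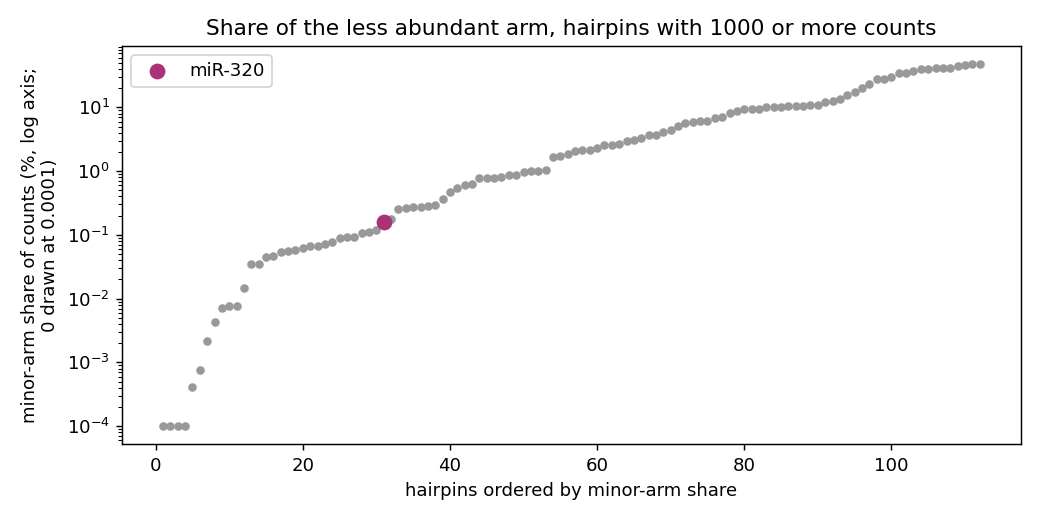
Share of counts of the less abundant arm (log axis, percent, hairpins at 0 drawn at 0.0001) for the 112 hairpins with both arms in the table, ordered from the most to the least skewed; counts are summed over 6 libraries. miR-320 (large point) is the 31st, at 0.158%.

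Mirtrons, which are spliced introns that fold into a Dicer substrate, are the other main way around Drosha. Of the 6 rows of miR-877, miR-1224 and miR-702, 3 could be tested, and edgeR called 0 of them, where 30.5% of all tested miRNAs were called. By unadjusted edgeR p under 0.05 the count was also 0, against 44.4% of all. With only 3 rows, a count of 0 says little. For miR-877-5p, from an intron of Abcf1, sham hearts held 40.6 ± 2.35 CPM and TAC hearts 34.7 ± 7.58, a log2 difference of -0.23 with a 95% interval from -0.66 to 0.20. Its other arm, miR-877-3p, was at 20.5 ± 5.60 and 15.3 ± 3.96 CPM (-0.46, interval from -1.10 to 0.18). miR-702-3p was at 19.9 ± 5.06 and 17.8 ± 4.999 CPM (-0.18, interval from -0.83 to 0.46; SD, n = 3 each). All 3 values were below 0 at the TMM level, as were those of miR-320-3p and miR-484, and all 3 intervals contained 0. Values below 0 were found in 45.5% of all tested miRNAs, and miR-877-5p and miR-877-3p come from the same hairpin. With the GC trend taken out miR-877-5p and miR-702-3p were both at 0.02, and miR-702-3p was also at 0.05 without TAC 29, at 0.01 without sham 69 and at -0.37 without TAC 78. miR-877-5p was at -0.06 without TAC 29 and at -0.40 without TAC 78, and miR-877-3p at -0.27 without sham 69. The mirtron miR-1224 was at 0 counts for its 3p arm and at most 2 for its 5p arm.

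Among miRNAs cut from snoRNA-like precursors, 3 of 4 rows could be tested, and 0 passed in edgeR, also at an unadjusted p under 0.05, again beside 30.5% and 44.4% of all tested miRNAs. For miR-1839-5p, sham hearts held 100.3 ± 1.86 CPM and TAC hearts 116 ± 12.2 (log2 difference 0.21, below 0 with library totals; 95% interval from -0.12 to 0.54). miR-664-5p was at 32.0 ± 4.08 and 27.0 ± 4.09 CPM (-0.24, interval from -0.67 to 0.18; SD, n = 3 each), and miR-664-3p at 17.9 ± 4.20 and 17.3 ± 3.999 CPM (-0.03, interval from -0.63 to 0.56). miR-664-5p was at -0.13 without sham 68 and at -0.14 without TAC 78, and miR-664-3p turned to 0.16 without sham 69, 0.10 without TAC 78 and 0.02 without TAC 81. The median log2 difference was -0.23 over the 3 mirtron rows and -0.03 over the 3 snoRNA-like rows, against 0.07 over all tested miRNAs. With library totals miR-877-5p (-0.54, adjusted p = 0.0494) and miR-664-5p (-0.55, adjusted p = 0.0427) were called lower, 2 of the 6 tested rows, in a setting where 28.8% of all tested miRNAs were called lower. miR-451a, which needs Drosha but is matured by Argonaute in place of Dicer, rose from 971 ± 82.5 to 2154 ± 695 CPM (log2 difference 1.15 ± 0.20 SE, edgeR adjusted p = 0.00423).

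**Figure D4:**
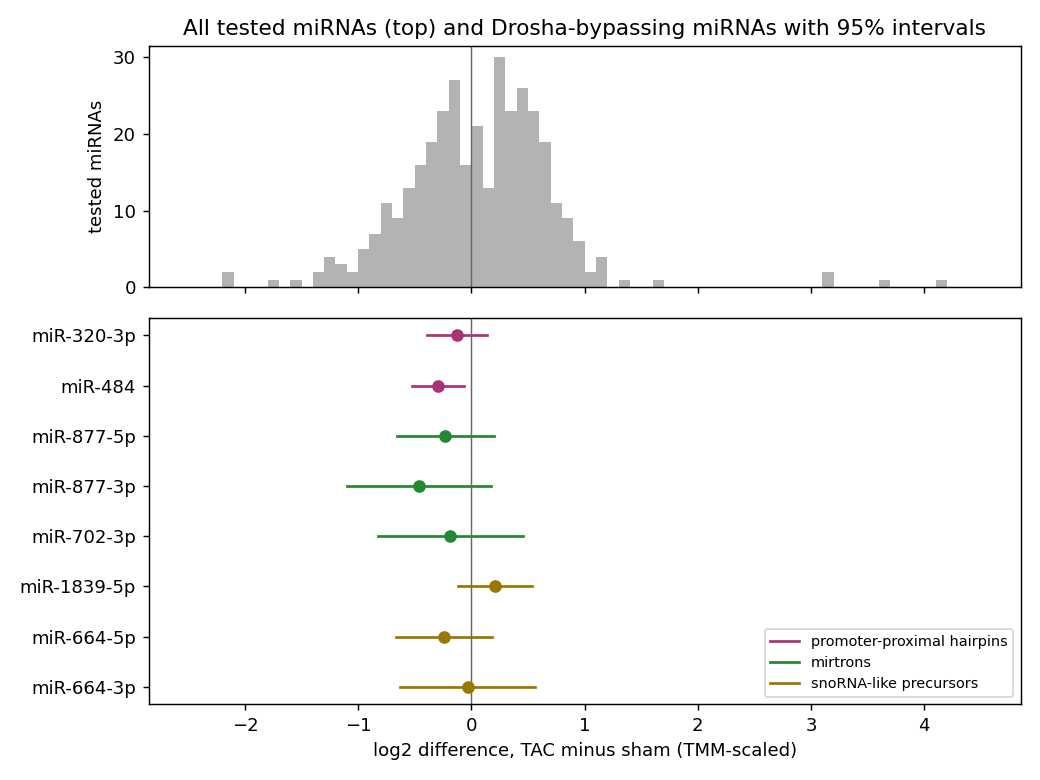
Top, histogram of log2 differences (TAC minus sham, TMM-scaled) over the 354 tested miRNAs; bottom, the tested Drosha-bypassing miRNAs on the same axis with 95% intervals, coloured by route. The point estimates lie between -0.46 and 0.21, and every interval except that of miR-484 contains 0.

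The miRNAs whose levels ran most like each of the pair were sought over the 6 libraries, on log2 CPM. For miR-484 they were miR-543-3p (Pearson r = 0.972), miR-1198-5p (0.968) and miR-501-3p (0.958). For miR-320-3p they were miR-221-3p (0.967), miR-350-5p (0.940) and miR-532-5p (0.928). These values are descriptions, since the libraries share their group difference and scaling. miR-320-3p and miR-484 correlated with each other at r = 0.598, which put miR-484 at place 58 among the miRNAs like miR-320-3p. Of the 6 named, miR-543-3p (log2 difference -0.86, edgeR adjusted p = 0.0361) and miR-501-3p (-0.50, adjusted p = 0.0403) were called lower in TAC, where 11.3% of all tested miRNAs were. Both were picked for running like miR-484 over these same libraries, so their fall follows in part from that choice.

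Some markers of cell types moved with the groups. All 4 muscle miRNAs rose, with summed shares as given above, against 19.2% of all tested miRNAs called higher. With library totals miR-133a-3p and miR-208a-3p were not called. Neither was miR-208a-3p with totals that leave out the 5 most abundant miRNAs (edgeR adjusted p = 0.0788). The same held for miR-208a-3p without a low-count filter (0.152) and with the GC trend taken out (0.258), where miR-499-5p stayed called (0.0133). The GC fit did not include miR-1a-3p, miR-133a-3p or the smooth muscle miRNAs, so their calls were not tried in it. Against the same 19.2%, 2 of 3 smooth muscle miRNAs rose, with a summed share of 3.88% to 4.78% in sham and 5.26% to 5.64% in TAC. Both mesenchymal miRNAs, miR-199a-5p and miR-214-3p, fell, where 11.3% of all tested miRNAs did, from a share of 0.295% to 0.436% in sham to 0.144% to 0.175% in TAC. Again beside 19.2% of all, 1 of 3 tested red blood cell miRNAs rose (share 0.111% to 0.128% in sham, 0.149% to 0.266% in TAC). Of 4 tested leukocyte miRNAs 1 rose (share 0.0237% to 0.0260% in sham, 0.0304% to 0.0318% in TAC). At the TMM level miR-144-3p (log2 difference 0.28) and miR-144-5p (0.37) were not called. Neither were the leukocyte miR-142a-5p (0.36), miR-155-5p (0.56) and miR-223-3p (-0.19). The called rows were miR-451a (1.15, edgeR adjusted p = 0.00423) and the leukocyte miR-150-5p (1.17, edgeR adjusted p = 0.000901). In both lists the summed share was higher in every TAC library than in any sham library. A shift of either cell type was not tested. The part of these shifts in the values of miR-320-3p and miR-484 was not tested, and in whole hearts fewer cells of a type and less RNA per cell cannot be told apart.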

How the data were processed

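The authors deposited 1 table of read counts per mature miRNA with 1 column per mouse. All columns were matched, and 0 were left over. The submitters' processing notes list HISAT2, StringTie, DESeq2 and build mm10 without saying what each did. No source used here gives the counter, trimming, strand setting or library kit. Libraries of a group differed beyond counting error (chi-square per degree of freedom 31.6 to 67.8).

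Groups were compared with edgeR 4.0.16 (quasi-likelihood test, TMM, filterByExpr, Benjamini-Hochberg over 354 miRNAs, R 4.3.3), tested on simulated data. The simulated counts had the same spread setting for all miRNAs, so they do not show how the test behaves on these libraries. Intervals come from its standard errors. Alternatives were DESeq2 1.42.0, limma-voom 3.58.1, robust fitting, 4 scalings, 2 filters, counts divided by places, thinning, a GC trend (local regression, span 0.75, over the 315 tested rows matched to a RefSeq sequence) and leaving out each mouse. Ratios and shares used exact permutation tests (scipy 1.17.1). Log2 CPM used a prior count of 2.

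The members, lists and alternatives were chosen with earlier results of these data known. Named miRNAs are the members, the lists, the 3 most alike by Pearson correlation and the neighbours in level. Whether mice shared a litter or batch is not given.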

Additional observations from a re-analysis of the deposited data

How the results depend on the processing

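At the TMM level 0 of the 2 tested miRNAs were called. With library totals 2 were, miR-320-3p at -0.43 and miR-484 at -0.60 on the log2 scale. In 6 further settings 1 was called, always miR-484: -0.37 with RLE factors, -0.37 with DESeq2, -0.45 with upper quartile factors, -0.51 with totals without the 5 most abundant miRNAs, -0.35 with counts divided by places and -0.45 without a low-count filter. In these 6 settings between 29.2% and 33.1% of all miRNAs were called, apart from 9.73% without the filter. Scaling moved the median of all tested miRNAs by -0.31 (totals), -0.21 (totals without the 5 most abundant) and -0.15 (upper quartile). It moved by -0.08 with RLE factors, -0.08 with DESeq2 and -0.05 with counts divided by places. Part of each member's value in these settings is therefore the shared shift. Without a low-count filter the median, there over 1100 miRNAs, moved by -0.21. The split of calls over all miRNAs moved from 68 higher and 40 lower to 25 and 102 with library totals.

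Leaving out 1 mouse at a time left 0 called in each of the 6 fits, while the share called over all miRNAs was 17.1% to 22.4%, against 30.5% with all mice. It gave -0.27 to -0.05 for miR-320-3p, -0.34 to -0.24 for miR-484 (adjusted p from 0.077 to 0.156), -0.25 to 0.57 for miR-320-5p, 0.07 to 0.26 for the log2 ratio of miR-320-3p to miR-484 and 0.0211 to 0.130 percentage points for the 5p share. The sign for miR-320-5p turned without sham 68 (-0.11) and without TAC 78 (-0.25). The GC trend was run for miR-484 and not for miR-320 or the ratio. No paired analysis was possible because no animal number is shared between the groups. Depth limits miR-320-5p, at 1 to 12 counts per library.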
